A study of Mus musculus with 12 samples.

Results

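BF10 is a fusion protein in which human interleukin-10 (IL-10) is joined, through a short linker, to the heavy chain of a mouse IgG2a antibody (clone AFS98) that blocks the receptor for colony stimulating factor 1 (CSF-1R). The 3 tumors treated with BF10 (replicates 3, 6 and 7) were compared with the 3 tumors that received control IgG (replicates 4, 5 and 7). These 6 samples are part of a series of 12, and the members were chosen by their treatment labels alone. All 6 were grown from 4T1 cells (a transplantable line from a mammary carcinoma of the mouse) injected at the orthotopic site in Balb/c mice. The study's methods give the age of its mice in weeks, that of young adults, and name no engineered allele. Treatment began at a tumor volume of 100 mm3. The protocol label gives 6 doses, whereas the series design and the study's methods for RNA sequencing give 4. The sources differ, so the number of doses behind these tumors is uncertain. The labels call the control an isotype with an IgG1 Fc part, whereas the antibody of BF10 is an IgG2a, so if both are as named the fused cytokine, the CSF-1R binding and the Fc class differ together between the groups. The remaining 6 tumors were treated with IL-10-Fc, a fusion of IL-10 with an Fc part, or with the CSF-1R antibody alone. They entered the fit for their spread, and a few of their levels are set beside those of BF10. The labels do not say that the 3 samples of a group came from 3 mice, so the p-values measure the spread between these samples.

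CSF-1R is the receptor through which CSF-1 and IL-34 keep monocyte-derived macrophages alive, and osteoclasts depend on it as well. IL-10 signals through IL10RA and IL10RB to JAK1, TYK2 and STAT3, restrains macrophages, and can also stimulate activated CD8 T cells to make interferon gamma (IFN-gamma). Cells exposed to IFN-gamma induce the transcription factor IRF1 and switch on guanylate-binding proteins, immunity-related GTPases, the antigen processing machinery of MHC class I and the chemokines CXCL9, CXCL10 and CXCL11. The gamma-activated site and the interferon-stimulated response element are DNA motifs found near many of these genes.

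The promoters of 5 genes that stood above control in every BF10 tumor are shown. Of these genes 4 are among those named by the rule, and Gbp2 is the most abundant member of the Gbp family. Every promoter shown holds a match to a motif given below, and named genes without a match are not shown. The promoters shown are thus a selection and do not stand for the named genes as a group. Each is the RefSeq window of GRCm38.p6 from 250 bases before the annotated start to 50 after it, printed 5′ to 3′ along the gene. Capitals mark matches to TTTCNNTTTC or its reverse complement GAAANNGAAA (the core of the interferon-stimulated response element, where N is any base) and to TTCNNNGAA (the gamma-activated site, which is its own reverse complement). Matches to both motifs may overlap.
Gbp5, chr3:142496684-142496983, plus strand: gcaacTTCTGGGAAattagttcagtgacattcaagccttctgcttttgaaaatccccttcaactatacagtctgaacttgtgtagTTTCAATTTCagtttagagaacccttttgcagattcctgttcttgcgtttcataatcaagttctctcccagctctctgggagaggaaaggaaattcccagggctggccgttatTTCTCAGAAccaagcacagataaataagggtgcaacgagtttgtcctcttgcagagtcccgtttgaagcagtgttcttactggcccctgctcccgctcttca
Gbp3, chr3:142559794-142560093, plus strand: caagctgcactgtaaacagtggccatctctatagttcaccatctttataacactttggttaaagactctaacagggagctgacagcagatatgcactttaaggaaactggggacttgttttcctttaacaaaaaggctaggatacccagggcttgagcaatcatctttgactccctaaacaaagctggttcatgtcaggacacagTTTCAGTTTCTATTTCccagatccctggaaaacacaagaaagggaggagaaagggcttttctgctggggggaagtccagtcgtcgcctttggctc
Gbp2, chr3:142620413-142620712, plus strand: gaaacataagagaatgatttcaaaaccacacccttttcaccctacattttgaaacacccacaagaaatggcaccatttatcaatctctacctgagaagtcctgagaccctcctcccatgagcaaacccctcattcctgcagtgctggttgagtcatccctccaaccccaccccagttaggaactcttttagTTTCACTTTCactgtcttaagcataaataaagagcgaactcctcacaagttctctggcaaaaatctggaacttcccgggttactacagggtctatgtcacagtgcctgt
Cxcl10, chr5:92348840-92349139, minus strand: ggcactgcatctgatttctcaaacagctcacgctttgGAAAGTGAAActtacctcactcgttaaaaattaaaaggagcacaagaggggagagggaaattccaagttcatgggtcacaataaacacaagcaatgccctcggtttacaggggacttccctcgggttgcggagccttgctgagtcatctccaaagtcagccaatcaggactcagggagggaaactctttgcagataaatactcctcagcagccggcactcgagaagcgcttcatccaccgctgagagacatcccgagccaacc
Serpina3g, chr12:104235897-104236196, plus strand: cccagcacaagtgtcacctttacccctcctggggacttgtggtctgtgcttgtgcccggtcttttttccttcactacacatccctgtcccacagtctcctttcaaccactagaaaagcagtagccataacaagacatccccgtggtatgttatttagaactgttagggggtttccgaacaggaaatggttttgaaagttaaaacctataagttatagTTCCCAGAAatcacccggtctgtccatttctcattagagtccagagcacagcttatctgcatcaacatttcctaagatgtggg

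Gbp5 held both motifs, with a response element at -165 to -156 from the start and gamma-activated sites at -245 to -237 and -52 to -44. Gbp3 held a pair of overlapping response elements at -45 to -36 and -39 to -30, Gbp2 a single one at -59 to -50 and Cxcl10 a single one on the reverse strand at -213 to -204. Serpina3g held no response element in this window and a gamma-activated site at -33 to -25. Of the 11 guanylate-binding protein genes 5 had a window, and 5 of these 5 held the response element, which was found in 3.99% of the 27025 genes with a window. These 5 (Gbp2, Gbp2b, Gbp3, Gbp5 and Gbp7) are neighbours of closely related sequence on chromosome 3. No member on chromosome 5 had a window. Of the 12 named genes above control 10 had a window, of which 4 held the response element and 3 the gamma-activated site. Of the 10611 tested genes with a window 4% held the response element and 8.45% the gamma-activated site, which 9.55% of all genes held. Among the 4 were Gbp3 and Gbp5 and among the 3 Serpina3f and Serpina3g, each a pair of close relatives. Of the 12 named genes below control 9 had a window and none of these 9 held either motif. A match is a description of the letters in a window, and binding was not measured.

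Levels are given on the TPM scale (a gene's share of all transcripts, corrected for gene length), made from the deposited FPKM values by bringing every library to the same total, and differences as the log2 change of TPM + 1 in BF10 minus control. The FPKM values of the 6 libraries summed to between 629766 and 901921, and the libraries fell into a lower-sum set (BF10 replicates 3 and 7, control replicate 5) and a higher-sum set (BF10 replicate 6, control replicates 4 and 7). Genes of ribosomal proteins held 13% to 15.6% of the sum in the lower-sum and 21.8% to 24.1% in the higher-sum libraries, and mitochondrial genes 3.25% to 3.69% and 6.77% to 9.26%. The relative depth, estimated from the value of a single read, was 0.923 to 1.07 and did not follow the sets. The other treated groups were divided like BF10, with 2 lower-sum libraries and 1 higher-sum library each. Since 2 of 3 BF10 tumors and 1 of 3 control tumors were lower-sum, differences within each set are given beside those over all 6, although each within-set value rests on 1 tumor on one side. BF10 replicate 3 stood apart from the other 5 libraries in neutrophil and keratinocyte genes, as described with those lists. The epithelial keratins and adhesion molecules of the labelled tumor were present, with Krt8 at 690.1, 496 and 905 TPM in BF10 and 316, 986 and 411 TPM in control and Epcam between 31.9 and 89.5 TPM in all 6. In bulk tumors, fewer cells of a type and less RNA per cell cannot be told apart.

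The comparison asked which genes set tumors given the fusion protein apart from tumors given a control antibody. No gene passed the threshold of an adjusted p below 0.05 with a 1.5-fold difference in limma, 0% of the 15504 genes tested. At an unadjusted p below 0.05 there were 234 genes, 153 higher and 81 lower in BF10. The median log2 change of all tested genes was 0.32, which was -0.05 within the lower-sum and 0.18 within the higher-sum libraries, and the median standard error (SE) was 0.43. Of all tested genes 12013 (77.5%) had a log2 change above 0, the share to set beside each list's count. In 366 genes all 3 BF10 tumors lay above all 3 control tumors (2.36% of those tested), and in 181 all 3 lay below (1.17%), which is 3.53% with groups apart in either direction. Within the sets, 2185 genes (14.1%) were above control in every library of the same set and 1019 (6.57%) below. With the library set as a term in the model, 581 genes (3.75%) had an unadjusted p below 0.05. The adjusted p of limma was 0.788 for each of the 24 named genes but Tmsb15a, so the values that follow describe these tumors and are not calls. An exact permutation test of 3 against 3 tumors cannot give a two-sided p below 0.1.

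**Figure D1:**
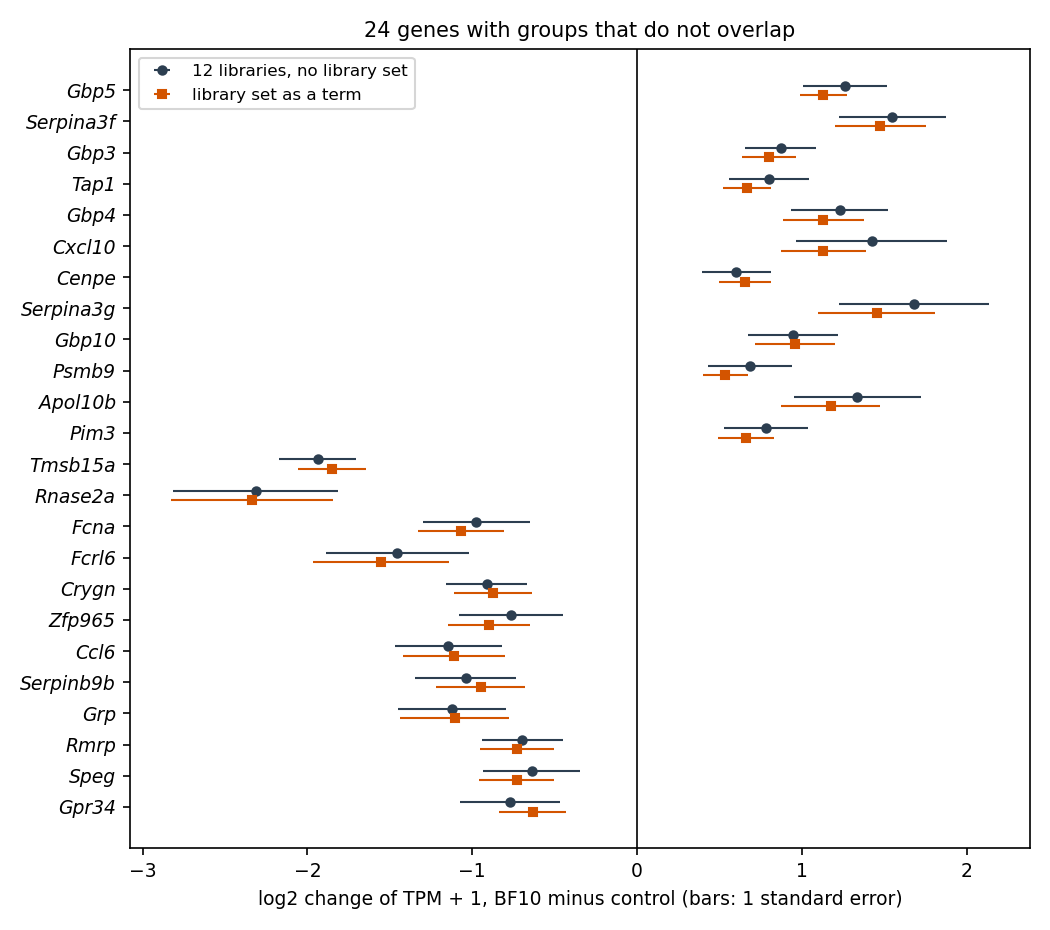
Log2 change of TPM + 1 (BF10 minus control, horizontal axis) of the 12 genes above and the 12 genes below control that the naming rule selected, with 1 standard error as bars. Circles are the fit without and squares the fit with the library set as a term. The naming rule required groups apart and the same sign in both sets, so the side of 0 is not a separate result.

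The guanylate-binding proteins, IFN-gamma-induced GTPases that attack the vacuoles of intracellular pathogens, were the list in which the groups were most often apart. All 11 members passed the filter on low values and had a log2 change above 0 (77.5% of all tested genes did), and in 9 of 11 the groups did not overlap, where 2.36% of all tested genes had BF10 above control. Within the sets, 11 of 11 were above control in every library of the same set, against 14.1% of all genes. The median log2 change of the list was 0.83, with 0.82 within the lower-sum and 0.56 within the higher-sum libraries, and it stayed between 0.65 and 0.91 when any of the 6 tumors was left out. These genes lie in 2 clusters, 5 on chromosome 3 (chr3:142493978-142638008 of GRCm38) with a median of 0.84 and 6 on chromosome 5 (chr5:105014150-105346472) with a median of 0.65, so both clusters stood above control. The size of the difference depended on the scaling. Under median of ratios scaling, which sets each library by its median gene, the list median was 0.47, beside 0.02 for all tested genes. Members then ranged from Gbp9 at -0.09 and Gbp2 at 0.20 to Gbp5 at 0.90. Groups apart were counted on the TPM scale only, and whether they stay apart under that scaling was not tested.

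Gbp5 was at 45.4, 32.4 and 46.7 TPM in BF10 and 17.5, 19.4 and 13.1 TPM in control, with no overlap in either set. Gbp3 (chr3:142560026-142573209, plus strand) was at 104, 104 and 124 TPM in BF10 replicates 3, 6 and 7 and at 70.4, 63.3 and 48.2 TPM in control replicates 4, 5 and 7. All BF10 tumors were higher than all control tumors, with a log2 change of 0.87 (SE 0.22) that was 0.84 within the lower-sum and 0.83 within the higher-sum libraries. Gbp4 was at 214, 127 and 221 TPM in BF10 and 107, 74.7 and 56.9 TPM in control, a log2 change of 1.23 (SE 0.29). Its lowest BF10 value was in the higher-sum tumor, and its within-set changes of 1.53 and 0.69 were the most unequal of the 4 named members of the family. Gbp10 was at 30.1, 25.1 and 34.7 TPM against 22.3, 12.5 and 11.9 TPM (0.95, SE 0.28), and the most abundant member, Gbp2, was at 296, 305 and 393 TPM against 269, 200.2 and 199 TPM (0.57). The groups overlapped in Gbp7 and Gbp9. Gbp4, Gbp8 and Gbp9 share an annotated end on chromosome 5 and the family is closely related in sequence, so the split of reads between members is uncertain. In the other treated groups Gbp3 was at 113 ± 8.24 TPM (SD, n = 3) with IL-10-Fc and 116 ± 22.1 TPM (SD, n = 3) with the CSF-1R antibody, beside 111 ± 11.6 with BF10 and 60.6 ± 11.3 in control.

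**Figure D2:**
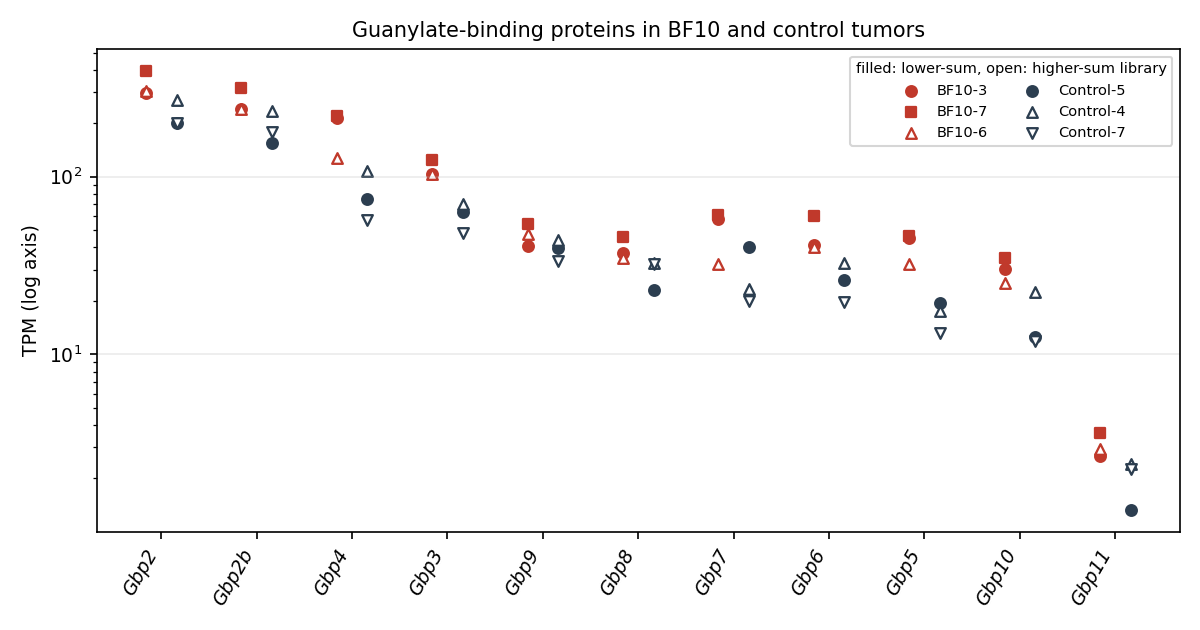
TPM of the 11 guanylate-binding proteins in each BF10 (red) and control (dark) tumor on a log axis. Filled symbols are lower-sum and open symbols higher-sum libraries, and in 9 of 11 genes the 3 BF10 points lie above the 3 control points.

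The rest of the IFN-gamma pathway stood above control less uniformly. Of the 20 genes of its list 19 had a log2 change above 0, in 4 the groups did not overlap and 12 were above control within both sets, where the shares of all tested genes were 77.5%, 2.36% and 14.1%. The median was 0.91 (0.54 and 0.48 within the sets), beside 0.32 for all tested genes, and without the doubted BF10 replicate 3 it was 0.74. Ifng itself, the cytokine, was scarce, at 3.05, 1.495 and 2.27 TPM in BF10 and 1.45, 0.873 and 0.721 TPM in control (0.69, unadjusted p 0.0224 in limma). The lowest BF10 tumor (replicate 6) and the highest control tumor (replicate 4) nearly met, although the groups did not overlap. Neither receptor chain had groups apart, with Ifngr1 at 103, 60.1 and 57.2 TPM against 57.3, 59.2 and 66.1 TPM and Ifngr2 at 62.5, 15.5 and 54.9 TPM against 15.7, 44.2 and 10.8 TPM. Irf1, a transcription factor induced by IFN-gamma, had a change of 0.82 over all 6 tumors and 0.35 and 0.66 within the sets.

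Cxcl10 (chr5:92346638-92348889, minus strand) encodes a ligand of CXCR3, the receptor that draws activated T cells. Its levels were 108, 47.2 and 74.8 TPM in BF10 and 31.5, 35.0 and 16.5 TPM in control, with a log2 change of 1.43 (SE 0.46). All BF10 tumors were above all control tumors, and the change was 1.33 and 1.01 within the sets. Cxcl9, another CXCR3 ligand, was at 189, 131 and 129 TPM against 125, 43.7 and 87.3 TPM, with control replicate 4 close below the lowest BF10 tumors. Cxcl11, the third ligand, was at 54.6, 75.7 and 41.5 TPM against 49.9, 15.3 and 30.4 TPM, and its groups overlapped. Cxcr3 itself was at 7.63, 4.97 and 12.3 TPM against 2.80, 9.54 and 3.97 TPM, an overlap in which the lower-sum libraries of both groups were highest. Ccl5, a chemokine of T and NK cells, was at 73.5, 20.4 and 36.3 TPM in BF10 and 11.7, 20.1 and 19.99 TPM in control, where BF10 replicate 6 was barely above the highest control tumor. The lymphocyte chemokine list as a whole was near the background. Its median was 0.30, beside 0.32 for all tested genes, and 8 of 13 genes were above 0 (all tested genes, 77.5%). In 3 of 13 BF10 lay above control in every tumor (all tested genes, 2.36%). Within both sets 4 were above control and 1 below (all tested genes, 14.1% and 6.57%).

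The immunity-related GTPases, which act with the guanylate-binding proteins, had 9 tested members of 11, and 9 of 9 had a log2 change above 0, against 77.5% of all tested genes. In 1 of 9 BF10 lay above control in every tumor (all tested genes, 2.36%), and 3 of 9 were above control within both sets (all tested genes, 14.1%). Their median was 0.73 over all 6 tumors and 0.71 and 0.32 within the sets. Igtp was at 231, 105 and 261 TPM in BF10 and 77.5, 114 and 61.6 TPM in control (1.17, unadjusted p 0.0305 in limma). Its groups overlapped by control replicate 5 alone, which lay above BF10 replicate 6. In Ifi47 the groups did not overlap, at 188, 206 and 188 TPM against 184, 122 and 128 TPM, although control replicate 4 came close to BF10. Tgtp1 and Tgtp2 are near-identical copies whose reads cannot be assigned with certainty, and in both control replicate 4 reached the BF10 values.

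Genes of MHC class I presentation gave a similar picture at smaller size. Of 17 genes 15 had a log2 change above 0 (all tested genes, 77.5%), in 5 of 17 the groups did not overlap (all tested genes, 2.36%), and 14 of 17 were above control in every library of the same set, against 14.1% of all genes. The median of the list was 0.68, and 0.34 and 0.41 within the sets. The 5 genes were Tap1, which carries peptides into the endoplasmic reticulum, the immunoproteasome subunits Psmb9 and Psmb10, and the proteasome activators Psme1 and Psme2. Tap1 (chr17:34187553-34197225, plus strand) was at 175, 149.8 and 207 TPM in BF10 and 101, 110.4 and 91.0 TPM in control, a log2 change of 0.80 (SE 0.24). Psmb9 (chr17:34181987-34187764, minus strand) was at 286, 243 and 334 TPM against 177, 197 and 158 TPM (0.69, SE 0.25). These are neighbouring genes read in opposite directions whose annotated ends overlap, and in both the higher-sum BF10 tumor was the lowest of its group yet above every control tumor. The heavy chain genes were abundant and were higher in the lower-sum libraries of each group, with H2-K1 at 4427, 3079 and 5731 TPM against 2032, 3929 and 2393 TPM and H2-D1 at 2228, 656 and 2793 TPM against 419, 1865 and 577 TPM. Their log2 changes within the sets were 0.36 and 0.48 for H2-K1 and 0.42 and 0.41 for H2-D1. B2m, the invariant light chain, was at 3527, 7358 and 4210.5 TPM against 7698, 3334 and 7683 TPM, higher in the higher-sum libraries of both groups, with a log2 change of -0.28.

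In the MHC class II list the picture depended on the set. Its median log2 change was 0.77 over all 6 tumors, 0.71 within the lower-sum and 0.09 within the higher-sum libraries. Cd74, the invariant chain, was at 2186, 641 and 2475 TPM in BF10 and 469.9, 1328 and 766 TPM in control. Ciita, the activator of the class II genes, was at 22.2, 11.1 and 31.7 TPM against 7.18, 16.5 and 7.85 TPM, with changes of 0.66 and 0.51 within the sets. H2-Ob, a class II-like chain of B cells, was 1 of 3 of the 11 tested genes with a change below 0 and the one below control in every tumor, at 0.751, 0.482 and 0.481 TPM in BF10 and 1.12, 0.905 and 7.10 TPM in control. The B cell markers Cd79a and Cd79b were highest in that same control tumor, replicate 7, at 11.8 and 29.5 TPM, and their part in the H2-Ob difference was not tested.

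The type I interferon list had a median of 0.78, with 21 of 22 genes above 0 (all tested genes, 77.5%), and in 2 of 22 BF10 lay above control in every tumor (all tested genes, 2.36%). Within the lower-sum libraries its median was 0.12 and within the higher-sum libraries 0.94. The 2 genes were Zbp1, a sensor of Z-form nucleic acid, at 155, 120.2 and 149.9 TPM in BF10 and 101, 81.8 and 57.6 TPM in control, and Bst2 (tetherin), at 287, 311 and 374 TPM against 168, 270.2 and 106 TPM. Ifit1, which responds mainly to type I interferon, was lowest in BF10 replicate 3 at 8.76 TPM and highest in BF10 replicate 6 at 47.6 TPM, and its control tumors lay between these at 31.9, 17.7 and 22.7 TPM. The groups also overlapped in Ifit2 and Ifit3, and in Isg15, a ubiquitin-like modifier, at 57.2, 109 and 85.5 TPM against 42.3, 73.8 and 25.5 TPM.

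A cluster of serine protease inhibitors on chromosome 12, the Serpina3 family, was found among the named genes by the rule and was then described as a whole, a choice made after its values were seen. Of its 8 tested members (7 genes and the pseudogene Serpina3e-ps, within chr12:104146382-104414329) 8 had a log2 change above 0, in 7 the groups did not overlap and 8 were above control in both sets, beside 77.5%, 2.36% and 14.1% of all tested genes. The median log2 change was 1.16, with 1.16 and 0.88 within the sets. Serpina3g (chr12:104236245-104241939), whose product inhibits cathepsins inside cells, was at 186, 86.5 and 117 TPM in BF10 and 37.7, 45.5 and 31.5 TPM in control. The lowest BF10 tumor was thus well above the highest control tumor, and the log2 change was 1.68 (SE 0.46). Serpina3f (chr12:104214544-104221129) was at 20.5, 15.2 and 14.6 TPM against 5.70, 5.48 and 3.98 TPM (1.55, SE 0.33). The change of Serpina3f was nearly equal in the sets, at 1.49 within the higher-sum libraries. Serpina3n, an acute-phase member, was at 76.8, 24.8 and 26.4 TPM against 12.7, 13.4 and 16.5 TPM, where BF10 replicate 3 was far above the other tumors. The members are close copies of each other, so part of these reads may be shared between them. Serpina3g was at 157 ± 27.9 TPM with IL-10-Fc and 79.9 ± 50.4 TPM with the CSF-1R antibody (SD, n = 3 each).

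Apol10b, an apolipoprotein L gene on chromosome 15 (chr15:77583819-77596125), was at 25.1, 12.7 and 21.2 TPM in BF10 and 10.5, 7.73 and 3.88 TPM in control (1.34, SE 0.39). Of the 9 tested Apol genes, a family looked at after the values were seen, 9 had a log2 change above 0, and in 4 (Apol10b, Apol11a, Apol11b and Apol7e) the groups did not overlap, beside 77.5% and 2.36% of all tested genes. Apol9a and Apol9b overlapped, at 58.2, 43.2 and 84.8 and 43.8, 37.8 and 89.7 TPM in BF10 against 26.1, 69.0 and 27.8 and 28.5, 82.2 and 42.1 TPM in control. The last 2 named genes above control were of other kinds. Pim3, a serine/threonine kinase, was at 98.5, 78.2 and 97.2 TPM against 45.9, 60.1 and 51.8 TPM (0.78, SE 0.25). Cenpe, the kinesin that moves chromosomes in mitosis, was at 46.4, 72.9 and 51.3 TPM in BF10 and at a narrow 37.5, 36.6 and 35.2 TPM in control (0.60, SE 0.21).

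**Figure D3:**
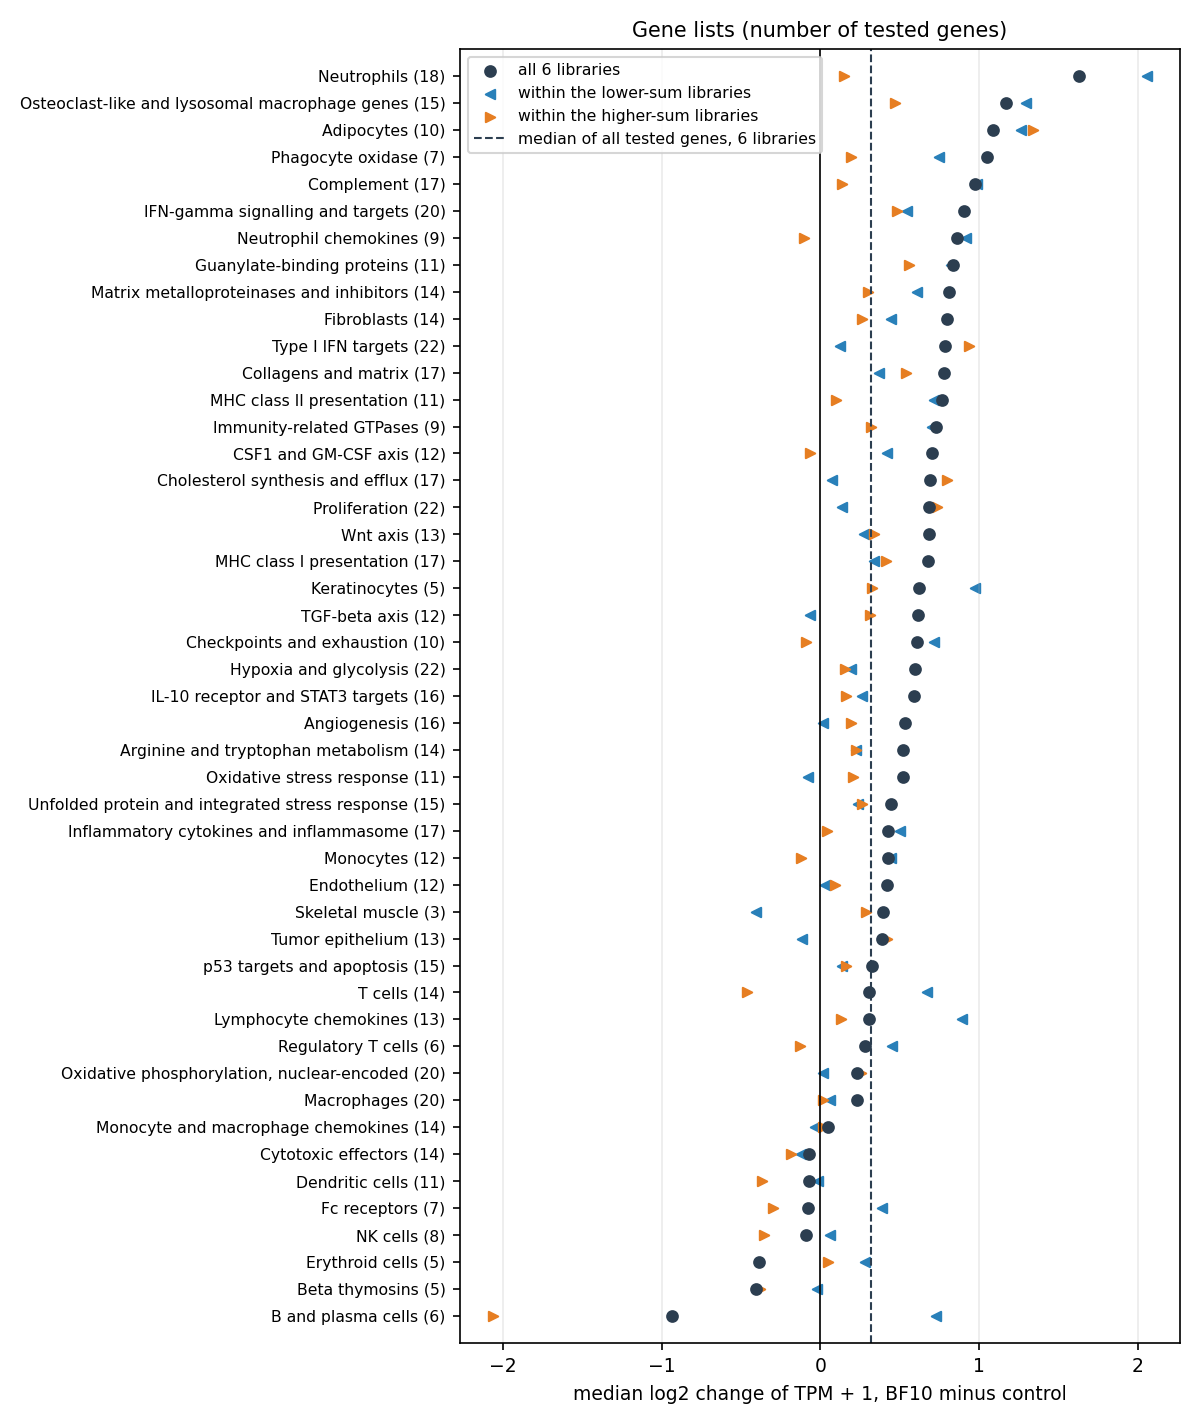
Median log2 change of TPM + 1 (BF10 minus control) over the tested genes of each of 47 gene lists, with the number of tested genes in brackets. Circles are all 6 tumors, left-pointing triangles the lower-sum and right-pointing triangles the higher-sum libraries, and the dashed line is the median of all tested genes at 0.32. The neutrophil list is at 1.63 over all tumors and 0.15 within the higher-sum libraries, and the guanylate-binding proteins are at 0.83 with within-set medians of 0.82 and 0.56.

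The mRNA of the receptor that BF10 binds differed by less than its standard error. Csf1r, a marker of macrophages as well as the target, was at 139.8, 26.7 and 101 TPM in BF10 and 18.8, 92.7 and 38.4 TPM in control, a log2 change of 0.82 (SE 0.91) that was 0.36 and -0.01 within the sets. With the CSF-1R antibody alone Csf1r was at 11.99 ± 9.85 TPM, and with IL-10-Fc at 71.7 ± 30.6 TPM (SD, n = 3 each). Of the ligands, Csf1 was at 153, 29.2 and 123 TPM in BF10 against 17.5, 139 and 19.2 TPM and Il34 at 30.9, 25.8 and 44.8 TPM against 16.1, 42.5 and 25.5 TPM, and both overlapped. Csf2, which encodes GM-CSF, was at 1.00, 5.22 and 1.54 TPM against 6.52, 4.65 and 7.08 TPM (-1.15, unadjusted p 0.0164 in limma), with BF10 replicate 6 inside the control range.

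The macrophage list had a median of 0.23, below that of all tested genes, and 13 of its 20 genes were above 0 (all tested genes, 77.5%). In 3 of 20 BF10 lay above control in every tumor (all tested genes, 2.36%) and in 2 of 20 below (1.17%). Within both sets 4 were above control and 5 below (all tested genes, 14.1% and 6.57%). Its members split. Adgre1 (F4/80) was at 36.3, 21.5 and 18.2 TPM in BF10 and 16.0, 15.9 and 16.7 TPM in control, and Fcgr1, an Fc receptor, at 52.6, 46.8 and 43.9 TPM against 42.5, 36.4 and 38.7 TPM, both with BF10 above every control tumor. The third such gene was Gpnmb, a glycoprotein of lysosome-rich macrophages, at 6.73, 0.687 and 1.41 TPM against 0.594, 0.540 and 0.654 TPM. Mrc1 (CD206), a receptor of resident and alternatively activated macrophages, was below control in every tumor, at 38.2, 41.5 and 32.9 TPM against 45.9, 45.4 and 65.8 TPM. C1qa, a chain of complement C1q made by macrophages, was also below, at 496, 589 and 572 TPM against 636, 623 and 823 TPM. Spp1 (osteopontin) was at 1606, 6709 and 4222 TPM against 9331, 5360.2 and 10286 TPM (-1.17, unadjusted p 0.0620 in limma), and BF10 replicate 6 lay within the control range. The summed TPM of the list was 6408, 9488 and 7553 TPM in BF10 and 11934, 9358 and 13838 TPM in control. Without Spp1 the other 19 genes summed to 4802, 2778 and 3331 TPM in BF10 and 2603, 3998 and 3552 TPM in control, with BF10 replicate 3 highest and the groups overlapping.

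Genes of osteoclasts and of lysosome-rich macrophages had a list median of 1.17. The list was drawn up knowing that Atp6v0d2 had been singled out in this series, so it is not independent evidence of a direction. Of 15 tested genes 14 had a log2 change above 0, in 7 the groups did not overlap (Mmp9, one of these, is also in the neutrophil list), and 12 were above control in every library of the same set, beside 77.5%, 2.36% and 14.1% of all tested genes. The median was 1.295 within the lower-sum and 0.47 within the higher-sum libraries, and 0.65 without BF10 replicate 3, which was the highest tumor in each of the 7 genes. Atp6v0d2, a subunit of the vacuolar proton pump in osteoclasts, was at 28.0, 9.15 and 9.18 TPM in BF10 and 6.18, 5.10 and 1.11 TPM in control. Acp5, the tartrate-resistant acid phosphatase used to stain osteoclasts, was at 617, 217 and 212 TPM against 133, 147 and 53.9 TPM. Dcstamp and Ocstamp, membrane proteins needed for osteoclast fusion, were at 12.1, 5.52 and 4.35 and 12.3, 6.48 and 5.64 TPM in BF10 against 3.62, 1.75 and 0.976 and 4.43, 2.78 and 1.19 TPM. Oscar, an osteoclast receptor, was at 11.1, 2.65 and 3.70 TPM against 1.51, 1.83 and 0.288 TPM. Ctsk, the collagen-degrading cathepsin of osteoclasts, overlapped by a single pair of tumors, at 763, 243 and 193 TPM against 205, 131 and 32.2 TPM. In contrast, the general lysosomal genes Ctsd and Cd63 had within-set changes of at most 0.22, and Ctsl, a lysosomal cathepsin, was at 963, 1276 and 1268 TPM against 1504, 1269.6 and 1456 TPM. Calcr, the calcitonin receptor of mature osteoclasts, was at most 0.141 TPM in any of the 6 tumors and was not tested. In the CSF-1R antibody tumors Atp6v0d2 was at 0.524 ± 0.0555 TPM and with IL-10-Fc at 12.1 ± 0.886 TPM (SD, n = 3 each).

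Neutrophil genes had the highest median of all 47 lists, 1.63, and 18 of 18 tested genes were above 0 (all tested genes, 77.5%), yet this rested on 1 tumor. Without BF10 replicate 3 the median was 0.26, and within the higher-sum libraries, which do not hold that tumor, it was 0.15. The summed TPM of the list was 21833, 2153 and 1370.0 TPM in BF10 and 2229, 1269 and 1853 TPM in control. Ly6g, which marks mature neutrophils, was at 74.8, 1.46 and 1.13 TPM in BF10 and 0.942, 1.21 and 1.497 TPM in control. S100a8, a subunit of calprotectin, was at 6522, 681 and 241 TPM against 671, 317 and 573 TPM. The groups did not overlap in Ngp, Elane and Mmp9, 3 of 18 tested genes, where BF10 lay above control in 2.36% of all tested genes. Elane, neutrophil elastase of the primary granules, was at 92.5, 3.82 and 2.64 TPM against 0.606, 0.635 and 2.23 TPM, and Ngp, a secondary granule protein, at 1573, 25.2 and 25.2 TPM against 7.08, 22.3 and 11.5 TPM. In Ngp the lower BF10 tumors were close to control replicate 5. Several keratinocyte genes were also highest in BF10 replicate 3, with Krt5 at 9.76, 1.12 and 0.932 TPM against 0.370, 0.683 and 0.832 TPM and Krt1, Flg and Dsg1a above 0 in no other of the 6 tumors. The part of these cells in the differences of other genes in that tumor was not tested.

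The T cell list was near the background. Cd3e was at 6.93, 0.832 and 6.24 TPM in BF10 and 1.03, 3.54 and 1.77 TPM in control, and Cd8a at 6.80, 2.52 and 4.63 TPM against 2.59, 3.13 and 2.72 TPM. In 0 of 14 tested members of the T cell list did the groups stand apart, as in most genes (3.53% of all tested genes had groups apart), and the median of 0.31 was 0.67 within the lower-sum and -0.46 within the higher-sum libraries. Regulatory T cell genes (median 0.28) and NK cell genes (median -0.09) were likewise mixed. Of the 10 tested checkpoint and exhaustion genes 9 had a log2 change above 0 (all tested genes, 77.5%). Their median was 0.61, with 0.71 within the lower-sum and -0.09 within the higher-sum libraries. Within both sets 3 were above control and 1 below (all tested genes, 14.1% and 6.57%). Cd274 (PD-L1) was at 36.8, 6.40 and 42.9 TPM against 8.18, 16.9 and 5.85 TPM, an overlap. Pdcd1lg2 (PD-L2), the 1 gene below 0, was below control in every tumor (all tested genes, 1.17%). Its levels were 0.720, 0.820 and 1.72 TPM against 1.73, 2.27 and 2.54 TPM.

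The list of cytotoxic effectors had a median of -0.07, with 7 of 14 genes above 0 (all tested genes, 77.5%). In 2 of 14 BF10 lay above control in every tumor (all tested genes, 2.36%) and in 1, Gzmf, below (1.17%). Within both sets 2 were above control and 4 below (all tested genes, 14.1% and 6.57%). The granzymes, serine proteases of cytotoxic granules, differed among themselves. Gzmb was at 15.6, 12.1 and 21.9 TPM in BF10 and 12.2, 25.2 and 12.04 TPM in control, with a log2 change of 0.05. Its neighbours in the same cluster on chromosome 14 had lower values in BF10, with Gzmf at 11.6, 24.02 and 44.7 TPM against 59.0, 156 and 49.6 TPM (-1.68, SE 0.70, unadjusted p 0.0357 in limma). Gzmg, which was in no list and was picked after its values were seen, was at 9.31, 18.6 and 36.8 TPM against 47.8, 143 and 47.4 TPM (-1.82, SE 0.72). In Gzmf and Gzmg every BF10 tumor was below every control tumor (all tested genes, 1.17%). The highest control value of both was in replicate 5, the lower-sum control. Of the 6 genes from Gzmb to Gzmg 5 had a log2 change below 0, where 77.5% of all tested genes were above 0. In both sets 4 of the 6 were below control (all tested genes, 6.57%). Prf1, perforin, was at 3.74, 1.33 and 7.70 TPM against 1.74, 18.7 and 3.15 TPM and overlapped. The genes Gzmc to Gzmg are close copies, so their reads may be shared. With IL-10-Fc Gzmg was at 9.83 ± 3.73 TPM and with the CSF-1R antibody at 86.4 ± 80.2 TPM (SD, n = 3 each).

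**Figure D4:**
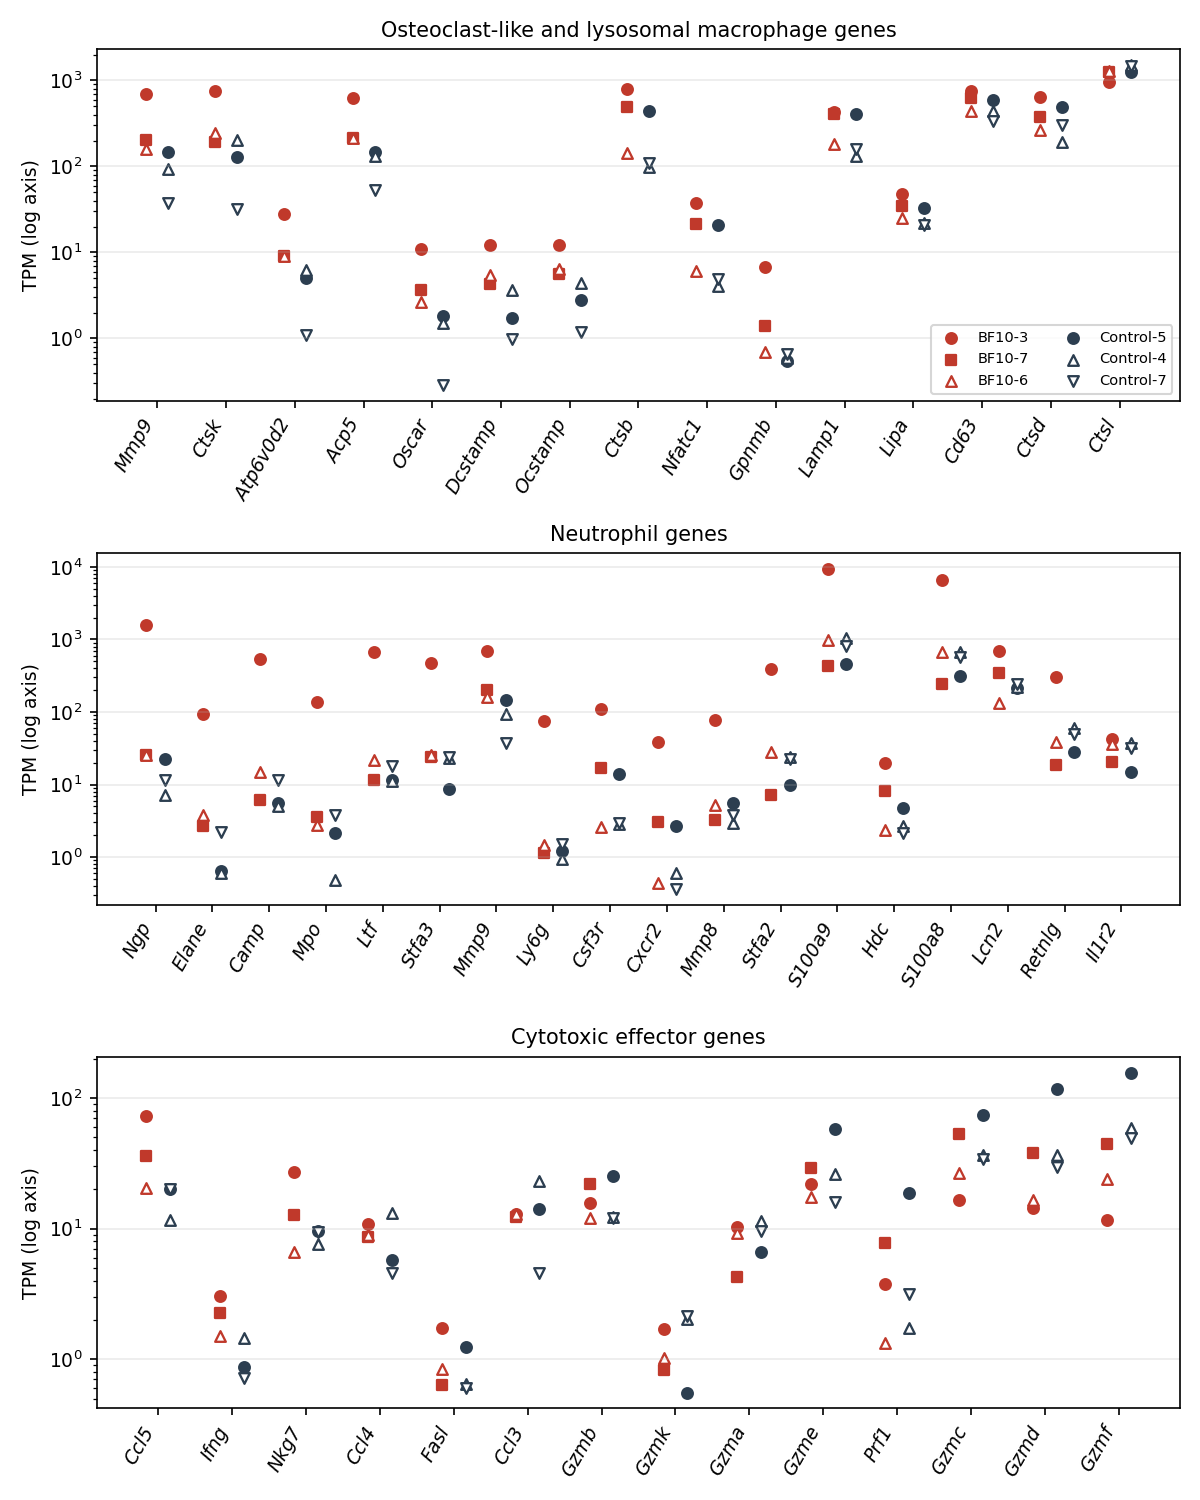
TPM of the tested genes of the osteoclast-like, neutrophil and cytotoxic effector lists in each BF10 (red) and control (dark) tumor on log axes, genes ordered by log2 change from left to right. Filled symbols are lower-sum libraries. BF10 replicate 3 (red circle) is the highest point in each of the 7 osteoclast-like genes whose groups do not overlap and in all neutrophil genes shown. Values of 0 cannot be drawn on a log axis and there are none in these lists.

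Genes below control were fewer, and most were scarce. Tmsb15a, a beta thymosin that binds actin monomers, was at 0.422, 0.301 and 0 TPM in BF10 and 4.83, 3.13 and 3.33 TPM in control. Its adjusted p was 0.0861 in limma. With the library set as a term in limma, the adjusted p of Tmsb15a was 0.0360 and that of Gbp5 was 0.0594, the 2 lowest in that fit. The abundant beta thymosins Tmsb4x and Tmsb10 overlapped between groups, at 4224, 5883 and 2791 and 2522, 2675 and 2561 TPM in BF10 against 7194, 3237 and 6969 and 2609, 2072 and 1554 TPM. Rnase2a, an eosinophil-associated ribonuclease, had a log2 change of -2.31 (SE 0.50). Its levels were 1.74, 2.89 and 0.699 TPM in BF10 and 8.16, 13.3 and 16.0 TPM in control, with changes of -2.73 and -1.68 within the sets. It was at 3.50 ± 3.47 TPM with IL-10-Fc and 0.852 ± 0.203 TPM with the CSF-1R antibody (SD, n = 3 each).

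Ccl6, a chemokine made by macrophages and other myeloid cells, was the only abundant gene of the 12 below control. It was at 257, 348 and 159.8 TPM in BF10 and 579, 419 and 639.7 TPM in control, a log2 change of -1.14 (SE 0.32), with -1.04 and -0.81 within the sets. Its neighbour Ccl9 overlapped, at 103, 26.1 and 53.9 TPM against 36.0, 57.9 and 44.5 TPM. Ccl24, an eosinophil attractant, was at 4.38, 26.3 and 6.66 TPM against 22.6, 22.8 and 46.0 TPM (-1.52, unadjusted p 0.0288 in limma), with BF10 replicate 6 inside the control range. Fcna, ficolin A, a lectin of the complement system made by macrophages, was at 8.01, 6.45 and 6.01 TPM in BF10 and 8.58, 17.5 and 19.2 TPM in control (-0.98, SE 0.33). Gpr34, a receptor for lysophosphatidylserine found on macrophages and microglia, was at 4.97, 7.69 and 5.84 TPM against 16.3, 8.02 and 10.3 TPM. In both, the nearest tumors of the groups were close to each other.

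Fcrl6, a receptor of the Fc receptor-like family, was at 0.438, 1.09 and 1.16 TPM in BF10 and 2.73, 8.11 and 2.93 TPM in control, where control replicate 5 was far above the other two. Serpinb9b, a serpin of the granzyme inhibitor clade, was at 0.673, 1.097 and 0.869 TPM against 3.04, 2.21 and 3.38 TPM, while Serpinb9, the inhibitor of granzyme B itself, overlapped at 29.1, 40.7 and 24.8 TPM against 42.5, 21.3 and 34.4 TPM. Grp, gastrin-releasing peptide, was at 0.219, 0.398 and 0.590 TPM against 2.10, 1.22 and 3.05 TPM. The last members were Crygn (a crystallin), Zfp965 (a zinc finger gene), Speg (a muscle kinase) and Rmrp (the RNA of RNase MRP). Rmrp carries no poly(A) tail, and the libraries were made from polyadenylated RNA. Their log2 changes were -0.91, -0.76, -0.64 and -0.70 with SEs of 0.25, 0.32, 0.29 and 0.24, and Crygn, Zfp965 and Rmrp stayed under 4 TPM in every tumor.

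The genes of the IL-10 receptor and STAT3 axis mostly overlapped between the groups, as most tested genes did (3.53% had groups apart). The tumors' own Il10 was at 1.16, 2.01 and 3.15 TPM in BF10 and 2.05, 0.302 and 0.987 TPM in control, with control replicate 4 between the BF10 values. The protein dosed carries human IL-10 and adds no mouse transcript. Il10ra was at 19.8, 7.42 and 16.1 TPM against 7.75, 16.7 and 8.56 TPM and Il10rb at 51.7, 13.6 and 37.8 TPM against 13.3, 35.9 and 11.7 TPM, both higher in the lower-sum libraries of either group. Socs3, a feedback inhibitor induced by STAT3, was at 90.6, 48.9 and 119 TPM against 36.8, 72.7 and 48.8 TPM, an overlap. Of the 16 genes of this list 14 were above 0 (all tested genes, 77.5%), with a median of 0.59 over all 6 tumors and 0.26 and 0.16 within the sets. In 1 of 16, Fcgr1, BF10 was above control in every tumor (all tested genes, 2.36%). Within both sets 6 of 16 were above control and 1 was below (all tested genes, 14.1% and 6.57%).

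Stromal and metabolic lists held few genes with groups apart, and nothing is read from these few genes. Of all tested genes 3.53% had groups apart, 2.36% with BF10 above and 1.17% with BF10 below control. In 0 of 14 fibroblast and 0 of 17 collagen and matrix genes did the groups stand apart, and the fibroblast median of 0.80 was 0.07 without BF10 replicate 3. Col1a1, the main fibrillar collagen chain, was at 2597, 241 and 522 TPM in BF10 and 182, 739 and 94.0 TPM in control, highest in that same tumor. Tgfb1, a cytokine that restrains T cells and activates fibroblasts, was at 109, 104 and 98.6 TPM against 66.7, 97.7 and 76.5 TPM, with BF10 replicate 7 barely above control replicate 5. Angpt1, the ligand of the endothelial receptor TIE2, was below control in every tumor at 3.13, 6.33 and 5.78 TPM against 11.2, 6.97 and 19.6 TPM (-1.10). Of 22 hypoxia and glycolysis genes 21 had a log2 change above 0 (all tested genes, 77.5%), but the median of 0.60 was 0.19 and 0.15 within the sets. Within both sets 8 of the 22 were above control (all tested genes, 14.1%). In 2 of these 22 the groups did not overlap, the glycolytic enzymes Gapdh (1094, 1134 and 1277 TPM against 955, 1035 and 813 TPM) and Ldha (1097, 1079 and 1194 TPM against 1067, 1043 and 843 TPM). Asns, asparagine synthetase, a target of the amino acid stress response, was at 30.0, 32.8 and 21.8 TPM against 18.8, 21.1 and 10.2 TPM with no overlap. In the nuclear-encoded respiratory chain the median was 0.23 and 2 of 20 genes had groups apart, Cyc1 (cytochrome c1) at 120.0, 86.9 and 86.0 TPM against 53.04, 82.3 and 63.5 TPM and Sdhb, a subunit of succinate dehydrogenase, at 151, 161 and 131 TPM against 127, 131 and 111 TPM. Within both sets 6 of the 20 were above control and 3 below (all tested genes, 14.1% and 6.57%). In the dendritic cell list 4 of 11 genes were above 0 (all tested genes, 77.5%) and in 0 of 11 were the groups apart (all tested genes, 3.53%).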

How the data were processed

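RNA of 12 orthotopic 4T1 tumors was sequenced after selection of polyadenylated RNA with a stranded kit, and the authors aligned the reads to mm10 (annotation GRCm38.101). The submitters' processing notes name STAR 2.7.5a, RSEM 1.3.3 and DESeq2 1.28.0, with no role given. The authors deposited FPKM values for 55401 genes in the 12 libraries, which hold no counts. A further 4 deposited tables hold the authors' own comparisons (log2 fold changes, p-values) and were not used. All columns were matched to samples by name (0 unmatched).

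Each library was rescaled to the same total, the scale of TPM. Tests covered the 15504 genes that reached a TPM of 1 in 3 or more of the 12 libraries. Genome-wide tests used log2(TPM + 1), which understates the change of low genes, in limma 3.58.1 (eBayes with trend, R 4.3.3) with 1 mean per group and 8 residual degrees of freedom. Genes were called at a Benjamini-Hochberg adjusted p below 0.05 and a 1.5-fold difference. The script was tested on simulated data. Depth was known only as a ratio between libraries, from 549 low genes. The library sets were divided at an FPKM sum of 700000.

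Named genes were the 12 above and 12 below control with the lowest unadjusted p with the set as a term, among those with a mean TPM of at least 1, groups that did not overlap, a change of 1.5-fold and the same sign in both sets. Of 125 genes above and 30 below that qualified, 24 were named, together with members of 47 gene lists (567 of 618 genes tested) that had groups apart or the extreme changes of a list. Other members described for their role, and genes outside the lists, were chosen after their values were seen. A few members are not reported here. The members, lists and rules were chosen with earlier results of these data known, and lists were given counts and medians only. Promoters and gene coordinates are those of GRCm38.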

Additional observations from a re-analysis of the deposited data

How the results depend on the processing

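The count of genes changed in BF10 against control was 0 in limma (234 at an unadjusted p below 0.05), and it stayed at 0 under other pseudocounts, scalings, filters on low values, the 6 libraries alone, robust variance shrinkage and, as a range, 0 to 0 when each of the 6 tumors was left out (114 to 1015 at an unadjusted p below 0.05). Within the lower-sum and the higher-sum set, where one arm is a single tumor, it was 0 as well (831 and 1694 unadjusted), which says nothing of stability. Adding the library set as a term gave 1 (0 higher, 1 lower, Tmsb15a, adjusted p 0.0360, with Gbp5 next at 0.0594), and 0 when that term was combined with median of ratios scaling, an alternative chosen after seeing the data, or fitted to the 6 libraries alone. At an adjusted p below 0.1 with no fold limit it was 1 (0 higher, 1 lower). With sample quality weights it was 8967 (8077 higher, 890 lower), a fit that gave weights from 0.0736 to 61.7 and whose weight estimation stopped before convergence; the cause was not tested. Median of ratios scaling moved the median of all genes from 0.32 to 0.02. The 24 named genes kept their sign under every alternative that tested them, 17 of them under the filter at a TPM of 5. The naming rule required groups apart and the same sign within both sets. Their sign within the sets and with a tumor left out was thus fixed by that choice, and says nothing of stability. Of 47 list medians, 9 moved beyond the replicate spread under median of ratios scaling, 7 within the lower-sum and 9 within the higher-sum libraries, and 5, 9 and 7 changed sign there. No paired analysis was possible because BF10 and control share 1 replicate number (7). Without counts, the depth behind low genes is not known beyond its ratio between libraries.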

Other observations

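Adipocyte genes were above control within the sets in 9 of 10 cases (all tested genes, 14.1%), with a median of 1.09 over all 6 tumors and 1.27 and 1.34 within the sets. The groups overlapped in 8 of 10, in most of them through control replicate 7. In 2 of 10 BF10 was above control in every tumor (all tested genes, 2.36%). Adipoq (adiponectin) was at 7.54, 44.8 and 15.3 TPM in BF10 and 0.449, 3.32 and 19.4 TPM in control, and Cfd (adipsin) at 20.2, 129 and 77.5 TPM against 1.21, 12.5 and 67.8 TPM, and control replicate 4 was the lowest in both. In the complement list, whose median was 0.97 and 0.44 without BF10 replicate 3, the serine proteases C1s1 and C1s2 and factor B were above control in every tumor. Of its 17 tested genes 3 stood above control in every tumor (all tested genes, 2.36%) and 1 below (1.17%). Within both sets 7 were above control and 2 below (all tested genes, 14.1% and 6.57%). C1s1 was at 157, 38.2 and 109.5 TPM against 35.6, 36.7 and 22.5 TPM, C1s2 at 13.1, 3.69 and 8.34 TPM against 3.10, 3.24 and 2.05 TPM and Cfb at 163, 109 and 110.4 TPM against 93.4, 63.4 and 81.9 TPM.

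Proliferation genes were above control within both sets in 16 of 22 cases (all tested genes, 14.1%), with a within-set median of 0.14 in the lower-sum and 0.73 in the higher-sum libraries. Mki67, which marks cycling cells, was at 47.0, 97.1 and 57.0 TPM in BF10 and 62.6, 61.6 and 53.3 TPM in control, highest in BF10 replicate 6. Of the Wnt ligands, Wnt7a and Wnt10a were above control in every tumor, at 8.82, 4.18 and 4.72 and 18.1, 12.9 and 11.0 TPM against 2.66, 3.38 and 1.16 and 7.36, 7.56 and 4.22 TPM. The more abundant Wnt7b overlapped, at 84.4, 182 and 157 TPM against 124, 205 and 176 TPM. Of the 13 tested genes of the Wnt list 2 were above control in every tumor (all tested genes, 2.36%). Il18bp, the secreted inhibitor of IL-18, was at 49.6, 49.6 and 56.4 TPM against 39.2, 30.0 and 30.8 TPM with no overlap.

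B and plasma cell genes were set apart by control replicate 7. Jchain was at 19.1, 11.3 and 4.89 TPM in BF10 and 18.5, 1.32 and 312 TPM in control, and Ccl21a, a chemokine of lymph node stroma, at 75.4, 0.591 and 6.26 TPM against 14.4, 1.64 and 190.1 TPM. The median of the list, -0.93, was 0.35 without that tumor.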
